A study of Homo sapiens with 2 samples.

Results

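The genes described here encode the chaperone systems of the mitochondrial matrix and the inner membrane prohibitin PHB2. They were taken from the deposited chaperome table by protein name, which gave 7 of its 332 genes: HSPA9, HSPD1, HSPE1, TRAP1, GRPEL1, GRPEL2 and PHB2. The rule uses names and no threshold on a measured value, though it was set with earlier results of these data known. The RNA came from HEK293 Flp-In T-Rex, an established human embryonic kidney line with a landing site for Flp recombination and a tetracycline repressor, and the extraction protocol calls the cells HEK293T. There are 2 libraries, replicates 1 and 2 of a single group, and hence no treatment, control or other cell type to compare. The series describes derived lines with tetracycline-induced GFP or HSPA1A, each fused to a FLAG and HBH tag, but the labels of these libraries name neither fusion and no induction. Nothing states that separate cultures were used, so the spread between replicates may be technical. The table lists chaperome genes only, so the cell line could not be checked against its own markers.

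Proteins that are imported into mitochondria arrive unfolded and are received on the matrix side by the mitochondrial HSP70, HSPA9 (also called mortalin). HSPA9 works with the nucleotide exchange factors GRPEL1 and GRPEL2, relatives of bacterial GrpE, which release ADP from HSP70 so that the client can be let go. Many proteins are then folded inside the HSP60 chamber, a ring of HSPD1 closed by a lid of the small co-chaperonin HSPE1 (HSP10). TRAP1 is the HSP90 of mitochondria and acts on metabolic enzymes and respiratory chain components. PHB2 is not a matrix chaperone: with its partner PHB it builds ring complexes in the inner membrane that hold and stabilise membrane proteins and their proteases.

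HSPD1 and HSPE1 are neighbours that are read in opposite directions on chromosome 2, and the DNA between their start sites is shown because both genes leave from it. In RefSeq on GRCh38.p14, the outermost HSPD1 start and the HSPE1 start were 104 bases apart, at chr2:197500275-197500378, here written on the plus strand, the strand of HSPE1. Capitals mark the only match to any motif searched in this stretch.
HSPD1 to HSPE1: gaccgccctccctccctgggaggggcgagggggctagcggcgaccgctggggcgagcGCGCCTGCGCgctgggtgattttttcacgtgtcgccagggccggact
The stretch was 74.0% G and C. The match, on the minus strand, was to the core motif of NRF1, a factor known for driving nuclear genes of mitochondrial proteins. That motif, searched on both strands, occurred in 5.78% of all 35116 RefSeq windows of 300 bases, which run from 250 bases before a start to 50 after it.

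A second sequence at this locus is a run of heat shock elements, the inverted GAA and TTC repeats that the heat shock factor HSF1 is known to bind. It lay at chr2:197500063-197500090 on GRCh38.p14, written here on the minus strand, the strand of HSPD1, with 5 flanking bases on each side. Capitals mark 3 matches that overlap by 3 bases each, TTCNNGAA at both ends and GAANNTTC in the middle.
HSPD1 element: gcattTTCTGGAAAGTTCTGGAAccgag
The element of 18 bases lay in the promoter window of a downstream HSPD1 start listed by RefSeq, and 189 bases inside the gene as counted from the outermost start. In GENCODE 29 it fell in the first intron of the transcript HSPD1-201 and in the first exon of HSPE1-201. Of all RefSeq windows, 6.77% held GAANNTTC and 7.74% held TTCNNGAA. Windows were found for 6 of the 7 genes, all but GRPEL1. A TTCNNGAA match was also present in windows of HSPA9 and PHB2, the NRF1 core in those of GRPEL2, HSPD1 and HSPE1, and a CCAAT box, which 34.6% of windows hold, in that of GRPEL2. The TRAP1 window held none of the 4 motifs. These are matches of letters in fixed windows and say nothing on binding.

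The library totals behind the deposited values were 6828264 reads in replicate 1 and 4445676 reads in replicate 2. The 7 genes took 12434 of these reads in replicate 1, or 0.182% of all its reads (0.179 to 0.185, a 95% Wilson interval). In replicate 2 they took 8056 reads, or 0.181% (0.177 to 0.185). They made up 6.46% and 6.39% of the reads of the whole table. HSPD1 and HSPA9 together held 71.1% of the reads of the 7 genes in replicate 1 and 72.1% in replicate 2. Intervals cover counting error only.

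The authors' RPKM, reads per kilobase scaled by library size, divides by the genomic span of a gene with its introns. Levels are therefore also given per kilobase of all annotated exons and per kilobase of the main transcript, the GENCODE 29 coding transcript with the longest coding sequence. These 2 lengths fit the counts only if intronic reads were left out, on which the sources are silent. All 7 genes reached 1 RPKM on the deposited scale, beside 46.4% of the whole table. The other lengths are shorter than the spans of these genes, so all 7 had to reach it there too. With exonic length 74.4% of the table did so, with the main transcript 77.7%, and without bases shared with other genes 78.0%. Their median was 6.62 RPKM, against 0.784 RPKM over all 332 genes.

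Of the HSP60 system, HSPD1 (ENSG00000144381, chromosome 2, 197486584 to 197516737, minus strand) had the most reads of the 7 genes, 5370 in replicate 1 and 3642 in replicate 2. On the deposited scale this gave 26.1 and 27.2 RPKM. Both libraries thus placed it at nearly the same level, and its mean of 26.6 ± 0.769 RPKM (SD, n = 2) ranked 15 among 332 genes. The span behind this value, 30154 bases, reaches to an exon that lies far upstream, while the transcript HSPD1-201 spans 13689 bases and is 2299 bases long. Per kilobase of that transcript HSPD1 stood at 342 and 356 RPKM, a mean of 349 ± 10.1 and rank 4, which was 13.1 times its deposited level.

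HSPE1 (ENSG00000115541, chromosome 2, 197500140 to 197503449, plus strand), the lid of the same chamber, had the fewest reads, 155 and 87. Its deposited scale values were 6.86 and 5.91 RPKM, a mean of 6.39 ± 0.669, and per kilobase of the main transcript it stood at 23.9 and 20.6 RPKM. Replicate 2 was the lower library, by the same factor on each scale, since both libraries are divided by the same length. HSPD1 exceeded HSPE1 in both libraries and on every length. The ratio of HSPD1 to HSPE1 was 3.802 in replicate 1 (95% exact interval 3.24 to 4.49) and 4.59 in replicate 2 (3.71 to 5.75) per kilobase of span. Per kilobase of main transcript it was 14.3 (12.2 to 16.9) and 17.3 (13.985 to 21.7). In raw reads, which are not divided by length, HSPD1 had 34.6 times as many in replicate 1 and 41.9 times as many in replicate 2.

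Gene models at this locus overlap, which touches the HSPE1 value most. The deposited HSPE1 span lies wholly within the deposited HSPD1 span, on the other strand. In GENCODE 29, exons of HSPE1 and HSPD1 had 281 bases in common on opposite strands, and HSPE1 shared 192 bases on its own strand with HSPE1-MOB4, a readthrough gene. Of the 950 bases of HSPE1-201, 477 were covered by no exon of another gene. Divided by unshared bases alone, the same reads gave HSPE1 47.6 and 41.0 RPKM and a ratio of HSPD1 to HSPE1 of 8.35 ± 1.11 (SD, n = 2). The part of this overlap in the low HSPE1 count was not tested.

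**Figure D1:**
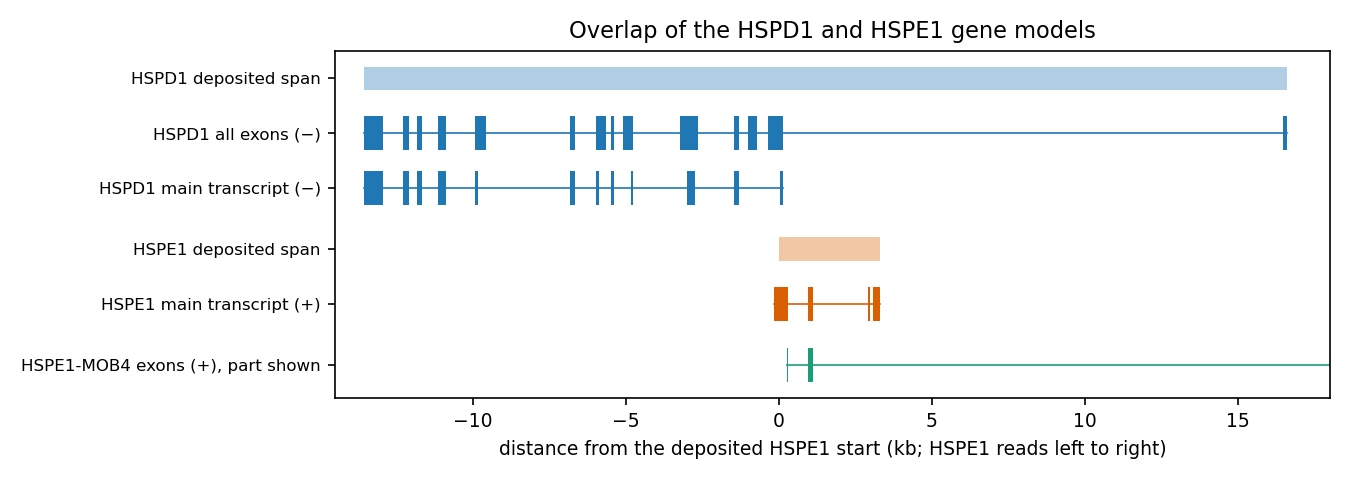
Gene models of HSPD1, HSPE1 and the readthrough gene HSPE1-MOB4, by distance in kilobases from the deposited HSPE1 start; pale bars are deposited spans, solid blocks are GENCODE 29 exons and lines join exons of a model, with HSPE1-MOB4 drawn in part. The HSPE1 span of 3310 bases sits inside the HSPD1 span of 30154 bases, and the first exons of the pair overlap.

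HSPE1 also has many processed copies. By symbol, GENCODE 29 lists 26 HSPE1 pseudogenes and 17 HSPD1 pseudogenes, against 3 for GRPEL2, 1 each for HSPA9 and PHB2, and 0 for TRAP1 and GRPEL1. In windows of 50 bases, 86.0% of the HSPE1 coding windows occurred exactly, on either strand, in a transcript of another gene. That share is not one of pseudogenes only, since it counts the readthrough gene HSPE1-MOB4 too. Over the whole transcript HSPE1-MOB4 held 144 windows, and the 9 HSPE1 pseudogenes with a match held 160, or 17.8%. Bases 121 to 306 of the 306 coding bases of HSPE1-201 (GENCODE 29, GRCh38, chromosome 2, plus strand) are shown. Windows that run past the coding part were left out, and which reads could be placed was not tested. Capitals are the 134 bases that lie in at least 1 coding window of 50 bases found in no other gene.
HSPE1 coding: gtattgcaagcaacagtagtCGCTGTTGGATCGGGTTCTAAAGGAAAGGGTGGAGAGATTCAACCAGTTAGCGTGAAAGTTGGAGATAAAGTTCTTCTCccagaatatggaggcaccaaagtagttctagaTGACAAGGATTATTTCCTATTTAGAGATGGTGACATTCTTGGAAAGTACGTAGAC
The capitals fell in coding bases 141 to 219 and 252 to 306, and the coding bases before the part shown held none. Over the whole HSPE1-201 transcript 52.9% of windows were shared, most often with HSPD1 on the other strand (25.7%) and HSPE1-MOB4 (16.0%). HSPD1 shared 29.4% of its windows, most with the pseudogene HSPD1P1 (17.96%), and TRAP1 shared 24.6%, all with DNASE1, whose exons overlap it on the other strand. HSPA9 shared 6.66% and GRPEL2 3.42%, while GRPEL1 and PHB2 shared 0 windows. The sources do not say how reads with several matches were counted, so the levels of HSPE1 and HSPD1 are uncertain where reads match a copy.

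**Figure D2:**
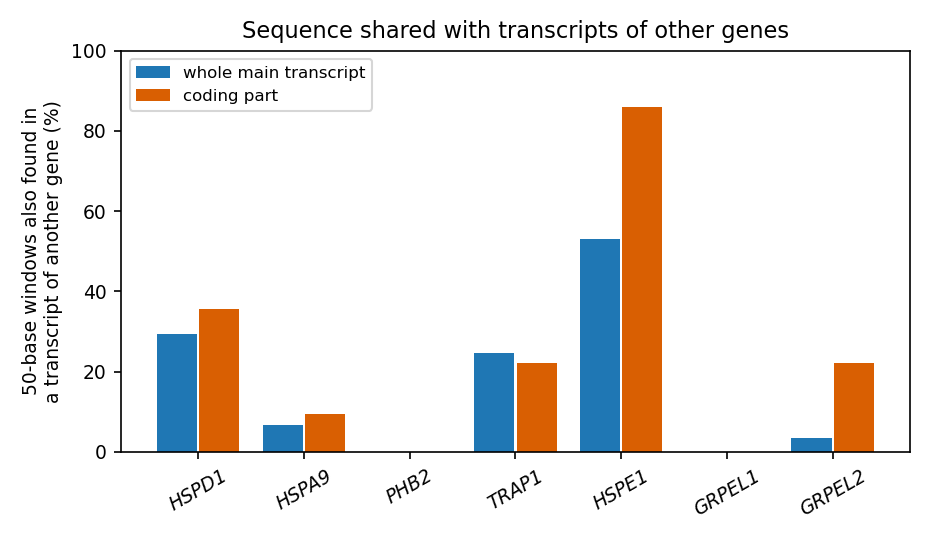
Share of 50-base windows of each gene's main transcript, and of its coding part, that occur exactly in a GENCODE 29 transcript of another gene on either strand, in percent. HSPE1 stands highest at 52.9% of the transcript and 86.0% of the coding part, and GRPEL1 and PHB2 are at 0.

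Of the HSP70 system, HSPA9 (ENSG00000113013, chromosome 5, 138553756 to 138575675, minus strand) had 3473 and 2170 reads. It stood at 23.2 and 22.3 RPKM on the deposited scale, where it ranked 18 in the table, and at 180 and 173 RPKM per kilobase of its main transcript, where it ranked 16. Its libraries differed by little, and necessarily by the same factor on both scales. GRPEL1 (ENSG00000109519, chromosome 4, 7058895 to 7068064, minus strand), known as the main exchange factor of HSPA9, had 300 and 186 reads and stood at 4.79 and 4.56 RPKM on the deposited scale. GRPEL2 (ENSG00000164284, chromosome 5, 149345430 to 149354583, plus strand), its vertebrate paralog, had 450 and 246 reads and stood at 7.20 and 6.05 RPKM. Both exchange factors were far below HSPA9, and on the deposited scale GRPEL1 was below GRPEL2 in both libraries without overlap.

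The order of the GRPEL paralogs depended on the length used. Per kilobase of span the ratio of GRPEL1 to GRPEL2 was 0.666 in replicate 1 (95% exact interval 0.573 to 0.772) and 0.755 in replicate 2 (0.621 to 0.917), so GRPEL2 was the higher one. Their spans are nearly equal, at 9170 and 9154 bases, and raw reads gave almost the same ratios, 0.667 and 0.756. The GRPEL2-201 transcript is longer, however, with 4089 bases against 2775 for GRPEL1-201. Per kilobase of main transcript the ratio was 0.982 (0.846 to 1.14) and 1.11 (0.916 to 1.35), so the paralogs could not be ordered: GRPEL1 stood at 15.8 and 15.1 RPKM, GRPEL2 at 16.1 and 13.5 RPKM. Per kilobase of all exons GRPEL2 was again higher, at a ratio of 0.753 ± 0.0669.

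The paralogs share little exact sequence. Their coding sequences were identical at 63.3% of 633 aligned bases, and the longest identical run was 11 bases. It is shown in capitals with 20 bases on each side, from the coding sequences in GENCODE 29.
GRPEL1: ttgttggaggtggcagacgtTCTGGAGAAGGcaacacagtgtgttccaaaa
GRPEL2: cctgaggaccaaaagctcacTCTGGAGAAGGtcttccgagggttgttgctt
The run covers coding bases 351 to 361 of GRPEL1 and 417 to 427 of GRPEL2. GRPEL2 does share 127 exonic bases with its antisense gene GRPEL2-AS1 on the other strand, and 59 of its windows occur in the pseudogene GRPEL2P2.

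Set against each exchange factor per kilobase of span, HSPA9 was 4.84 times GRPEL1 in replicate 1 (95% exact interval 4.30 to 5.47) and 4.88 times in replicate 2 (4.20 to 5.70). It was 3.22 times GRPEL2 in replicate 1 (2.92 to 3.56) and 3.68 times in replicate 2 (3.23 to 4.22). Per kilobase of main transcript it was 11.4 and 11.5 times GRPEL1 and 11.2 and 12.8 times GRPEL2.

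The mitochondrial HSP90, TRAP1 (ENSG00000126602, chromosome 16, 3651639 to 3717553, minus strand), had 1260 and 791 reads. On the deposited scale it was the lowest of the 7 genes, at 2.80 and 2.70 RPKM and rank 77. Its span of 65915 bases is the longest of the set, while TRAP1-201 has 2296 bases. Per kilobase of that transcript it stood at 80.4 and 77.5 RPKM, rank 29, which was 28.7 times the deposited level and well above HSPE1, GRPEL1 and GRPEL2. Of the 2296 bases, 866 overlap exons of another gene, and per kilobase of the unshared rest TRAP1 stood at 129 and 124 RPKM.

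Among the main chaperones of the 3 systems, HSPD1 (HSP60) was highest, HSPA9 (HSP70) next and TRAP1 (HSP90) lowest on all 4 lengths. The order is one of these 3 genes and not of whole systems, since HSPE1, GRPEL1 and GRPEL2 stood above TRAP1 by span and below it on the other 3 lengths. Per kilobase of span HSPD1 was 1.12 times HSPA9 in replicate 1 (95% exact interval 1.08 to 1.17) and 1.22 times in replicate 2 (1.16 to 1.29), and HSPA9 was 8.29 times TRAP1 in replicate 1 and 8.25 times in replicate 2. Per kilobase of main transcript HSPD1 was 1.90 times HSPA9 (1.82 to 1.98) and 2.06 times (1.955 to 2.18), while HSPA9 was only 2.24 times TRAP1 (2.0997 to 2.39) and 2.23 times (2.05 to 2.42). HSPD1 over TRAP1 was 9.69 ± 0.529 by span and 4.43 ± 0.242 by main transcript. With exonic length HSPD1 was 3.13 ± 0.182 times HSPA9, and HSPA9 was 1.74 ± 0.00582 times TRAP1. Without bases shared with other genes these ratios were 2.09 ± 0.121 and 1.39 ± 0.00465 (SD, n = 2).

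PHB2 (ENSG00000215021, chromosome 12, 6965327 to 6970780, minus strand) had 1426 and 934 reads. It was the highest of the 7 genes on the deposited scale, at 38.3 and 38.5 RPKM and rank 8, with the shortest span but that of HSPE1, 5454 bases. Per kilobase of main transcript it stood at 138 and 139 RPKM and came after HSPD1 and HSPA9. The snoRNA gene SCARNA12 lies inside it and covers 239 bases that are exonic in some PHB2 transcripts. PHB, the partner subunit of the prohibitin ring, had 1556 and 873 reads, and the ratio of PHB to PHB2 was 0.548 and 0.470 per kilobase of span and 0.902 and 0.773 per kilobase of main transcript. Without bases shared with other genes the ratio turned to 1.86 and 1.60.

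**Figure D3:**
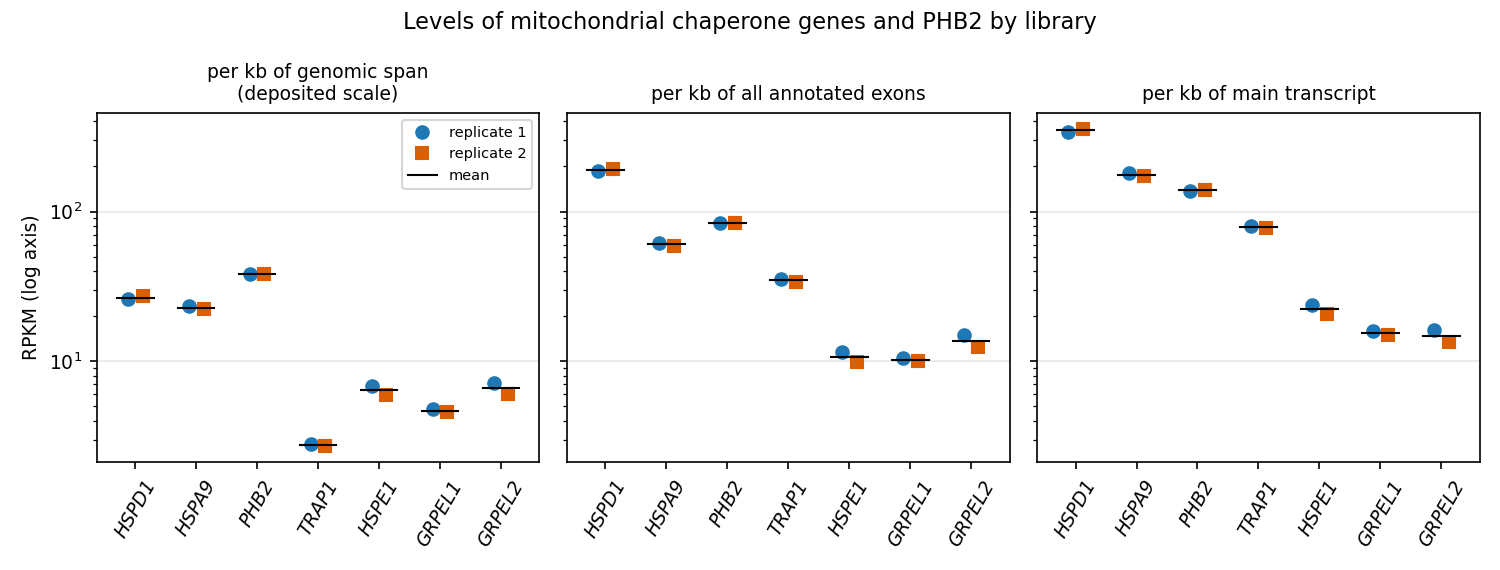
RPKM of the 7 genes in each library on a log axis, per kilobase of genomic span (deposited scale), of all annotated exons and of the main transcript; circles are replicate 1, squares replicate 2 and lines their mean. PHB2 is highest by span at 38.4 RPKM and HSPD1 by main transcript at 349 RPKM, while TRAP1 moves from lowest to the middle.

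The 21 pairs of the 7 genes were compared by their difference in log2(RPKM + 1). A difference was called where its sign was the same in both libraries and its 95% normal interval left out 0, with the standard error, 0.091 by span, taken from the replicate spread pooled over the table. By span 20 of the 21 pairs were called, beside 86.1% of all pairs of genes in the table. The pair not called was GRPEL2 and HSPE1, which differed by 0.04. With exonic length 20 were called (91.3% of all pairs), and HSPE1 and GRPEL1, at 0.05, were the neighbours not told apart. With the main transcript 20 were called (91.3% of all pairs), all but GRPEL1 and GRPEL2, at 0.06. Without shared bases 19 were called (90.8% of all pairs), and PHB2 and TRAP1, at 0.15, were not told apart either. No p-value is given for any order, since 2 replicates allow a 2-sided exact p of 0.5 at the least.

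Which gene stood above which was less stable than these counts. On all 4 lengths 12 pairs were called in the same direction: HSPD1 above HSPA9, HSPE1, TRAP1, GRPEL1 and GRPEL2, HSPA9 above HSPE1, TRAP1, GRPEL1 and GRPEL2, and PHB2 above HSPE1, GRPEL1 and GRPEL2. The call of HSPD1 above HSPA9 by span was lost without replicate 2, at 0.16. From span to main transcript 7 pairs changed sign, 5 of them called on both lengths. Among them, PHB2 stood 0.51 above HSPD1 by span and 1.33 below it by main transcript, and TRAP1 stood 0.60 below GRPEL1 by span and 2.28 above it by main transcript. The share of all pairs in the table that kept or changed direction between lengths was not computed. These counts therefore do not tell whether the 7 genes differ from the table in this respect.

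**Figure D4:**
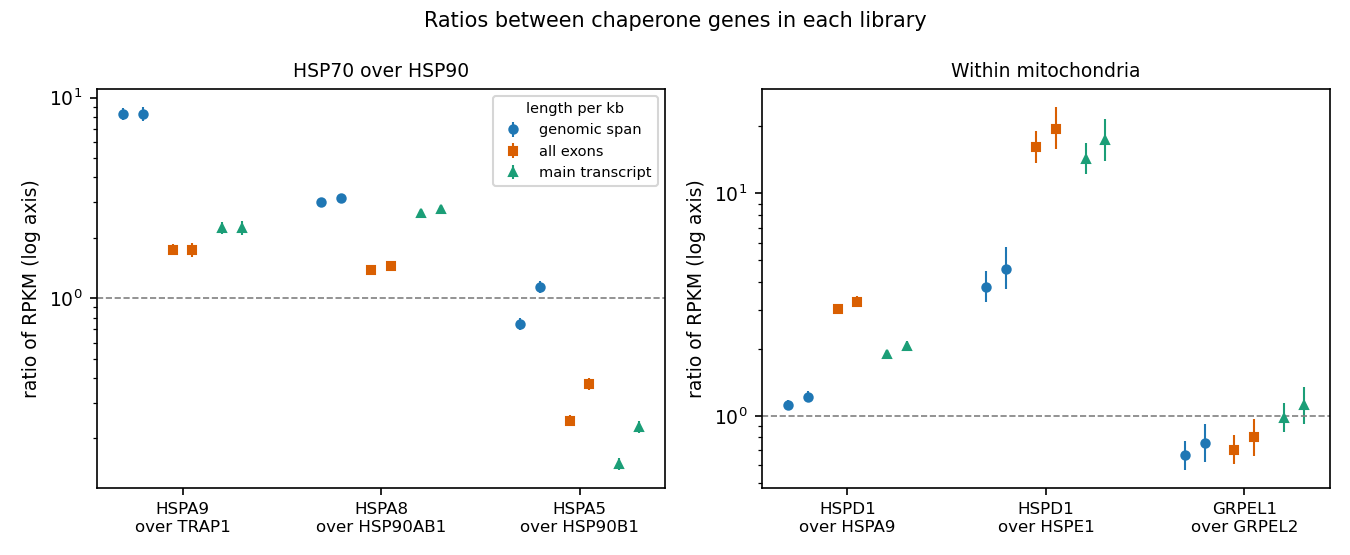
Ratios of RPKM in each library on a log axis, left for HSP70 over HSP90 in mitochondria, cytosol and endoplasmic reticulum, right within mitochondria; the paired points are replicates 1 and 2, bars are 95% exact intervals for counting error, and symbols mark the length used. HSPA9 over TRAP1 falls from 8.27 by span to 2.23 by main transcript, and the intervals of GRPEL1 over GRPEL2 hold 1 by main transcript and not by span.

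The log2 ratios of replicate 2 over replicate 1 lay between -0.25 and 0.06. In an exact binomial test with the library totals as exposure and Benjamini-Hochberg adjustment over the 320 genes with a read, 0 of 7 were called, beside 4.69% of all genes. At an unadjusted p under 0.05 there was 1 of the 7, GRPEL2, beside 17.2% of all genes. GRPEL2 was lower in replicate 2 by a log2 ratio of -0.25 (p = 0.0271, adjusted p = 0.217, exact binomial test). HSPD1 was slightly higher in replicate 2, at 0.06 (adjusted p = 0.314, exact binomial test), and HSPA9 slightly lower, at -0.06 (adjusted p = 0.475, exact binomial test). HSPE1 was at -0.21 with an adjusted p of 0.710 in the same exact binomial test, from the fewest reads of the 7. In all, 5 of the 7 log2 ratios were below 0, beside 54.4% of all genes, and their median was -0.06 against -0.02 for the table.

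**Figure D5:**
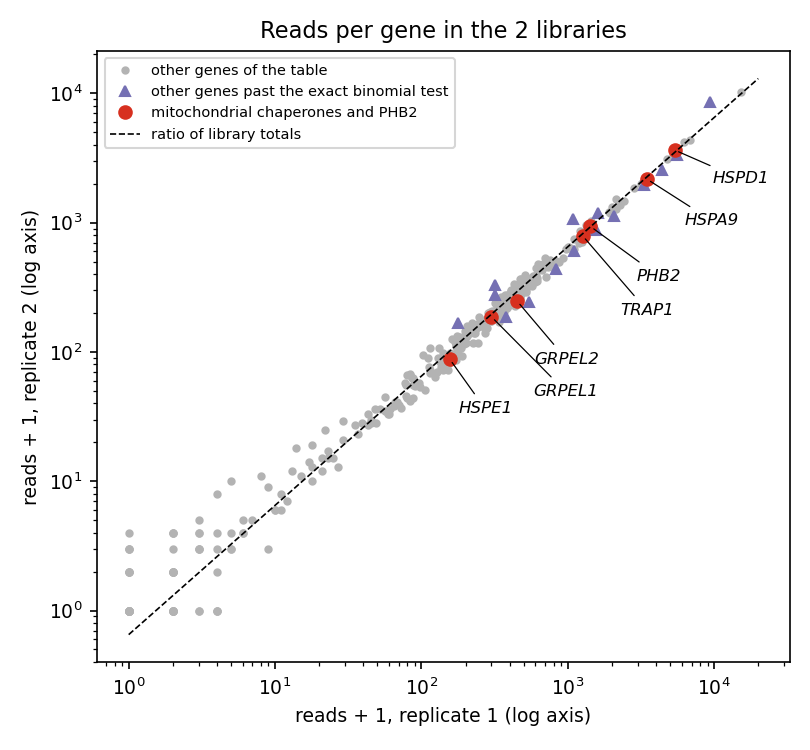
Reads plus 1 of each gene in replicate 1 and replicate 2 on log axes; red circles are the 7 genes, purple triangles the other genes past the exact binomial test, grey points the rest, and the dashed line is the ratio of the library totals. The red circles follow the line, from HSPE1 at 155 and 87 reads to HSPD1 at 5370 and 3642 reads.

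To see where the mitochondrial systems differ from those of other compartments, ratios were set beside the cytosolic pair HSPA8 and HSP90AB1 and the endoplasmic reticulum pair HSPA5 and HSP90B1, 1 gene per role. HSP70 over HSP90 was 8.29 and 8.25 in mitochondria, 3.02 and 3.15 in the cytosol and 0.745 and 1.13 in the endoplasmic reticulum per kilobase of span. The difference of the log2 ratio between mitochondria and endoplasmic reticulum was 3.17 ± 0.43 (SD, n = 2) by span, 2.53 with exonic length and 3.603 with the main transcript, so that its direction held on all of these. Against the cytosol it was 1.42 ± 0.05 by span and 0.30 with exonic length but turned to -0.28 with the main transcript, so no direction can be given. The cytosolic ratio also rests on HSPA8 and HSP90AB1 alone. HSPA1B, another cytosolic HSP70, had 5540 and 3356 reads against 15246 and 10177 for HSPA8. Its mean was 311 RPKM by span and by main transcript, against 394 and 1034 RPKM for HSPA8. HSP90AA1, the other cytosolic HSP90, had 9290 and 8556 reads against 6780 and 4341 for HSP90AB1. Its mean was below HSP90AB1 by span (27.9 against 128 RPKM) and above it by main transcript (468 against 381 RPKM). It was higher in replicate 2 (log2 ratio 0.50, adjusted p = 6.74e-115, exact binomial test). Ratios with HSPA1B or HSP90AA1 were not computed. By the exact binomial test HSPA5 itself was higher in replicate 2, with an adjusted p of 2.82e-20 and a log2 ratio of 0.61, and its part in the spread of the ratios that hold it was not tested.

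Exchange factors were compared in the same way, with HSPH1 for HSPA8 and HYOU1 for HSPA5. GRPEL1 over HSPA9 was 0.206 and 0.205 by span, HSPH1 over HSPA8 was 0.0113 and 0.0102, and HYOU1 over HSPA5 was 0.371 and 0.216. GRPEL1 was thus the larger in proportion to its HSP70 than HSPH1, by a log2 difference of 4.26 ± 0.09 by span, 2.52 with exonic length and 1.48 with the main transcript. The cytosolic side rests on HSPA8 and HSPH1 alone. HSPA4, another exchange factor of the HSP110 type, had more reads, 1899 and 1213 against 820 and 496. By main transcript it stood at 57.1 RPKM against 32.4 for HSPH1. Whether the difference holds with other cytosolic exchange factors was not tested. Against HYOU1 the difference of -0.46 ± 0.54 by span was within the replicate spread, while with the main transcript it was -2.48 ± 0.54. The endoplasmic reticulum side rests on HYOU1 alone. SIL1, another exchange factor of HSPA5, had 137 and 81 reads, and 11.2 RPKM by main transcript against 24.3 for HYOU1. The mitochondrial side rests on GRPEL1 alone, though GRPEL2 had more reads, 450 and 246 against 300 and 186. Differences between compartments with SIL1 or GRPEL2 were not computed.

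Other mitochondrial chaperones, import components and proteases were taken from a list of 40 symbols, of which 17 are in the table. The list also holds MKKS and TOMM34, which are not known mainly as mitochondrial. On the deposited scale 10 of the 17 reached 1 RPKM, and their median was 1.80 RPKM, against 6.62 for the 7 genes and 0.784 for the table. By main transcript the medians were 19.6, 78.9 and 8.44 RPKM. The highest by span were PHB at 21.004 and 18.1 RPKM, the cyclophilin PPIF of the permeability transition pore at 16.3 and 14.1 RPKM, and BCS1L, an assembly factor of respiratory complex III, at 6.35 and 7.60 RPKM. DNAJC15, a J-domain protein of the import motor, was lowest at 0.0322 and 0.0346 RPKM from 20 and 14 reads. Between the libraries 0 of the 17 were called higher in replicate 2, beside 1.88% of all genes, and 1 was called lower, beside 2.81%. That gene was PHB (log2 ratio -0.21, adjusted p = 0.0148, exact binomial test), whose partner PHB2 was at 0.01.

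Outside the 7 genes, the genes of the table whose levels by span lay closest to them, by distance in log2(RPKM + 1) over the 2 libraries, were PPIB for HSPA9 (0.090), PPIA for HSPD1 (0.078), PRDX4 for HSPE1 (0.098) and for GRPEL2 (0.033), UXT for GRPEL1 (0.041) and TCP1 for PHB2 (0.15). With 2 libraries this describes nearness of level only.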

How the data were processed

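Per the labels' protocols, Trizol was used for extraction and a strand-keeping Illumina TruSeq kit for total RNA gave the libraries. The tools STAR 2.6.0b, Bowtie2 2.4.2 and Trim Galore 0.6.4 and the build GRCh38 are listed, without roles, in the submitters' processing notes. The sources do not give the counting program, the annotation release or the handling of strand, introns and reads with several matches. The authors deposited 1 table with whole-number read counts per replicate and their mean RPKM per gene. The deposited RPKM was found to be reads per kilobase of genomic span (end minus start), scaled to a library total in each replicate and then averaged. These totals were recovered from the counts by least squares, with a largest relative misfit of 7.62e-14. The meaning of NHS in the names of the count columns is not stated.

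Levels per replicate were recomputed from the counts with 4 lengths: genomic span, the union of GENCODE 29 exons, the main transcript (basic, coding, longest coding sequence, lowest number on ties) and that transcript without bases in exons of other genes. The last pair of lengths was chosen after the data were seen. All 332 identifiers were found in GENCODE 29; for 325 the main transcript is coding, otherwise the longest was used. The authors' starts and ends differ slightly from GENCODE 29 for some genes. Pairs used a pseudocount of 1 RPKM. With 1 group no count model of groups applies, and the exact binomial test compares the 2 libraries. It was tried on simulated Poisson counts, which hold no spread beyond counting error. That trial cannot show how the test behaves where libraries differ by more than this. Promoter sequences are RefSeq windows on GRCh38.p14, and coding sequences are from GENCODE 29. Calculations used Python 3.11.15, scipy 1.17.1 and Biopython 1.88.

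The 7 genes and the lists were chosen with earlier results of these data known. Genes named were the 7 genes, the gene closest in level to each (1 is not reported here), 6 cytosolic and endoplasmic reticulum counterparts, and the 3 highest and the lowest of the list of 40. Alternatives were other lengths, pseudocounts, thresholds, scalings and filters, and each replicate left out.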

Additional observations from a re-analysis of the deposited data

How the results depend on the processing

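Among 282 values computed again under another setting, 18 differences between pairs of the 7 genes changed sign. Another 46 values, without a test, moved by more than the replicate spread. A call was lost by 6 and gained by 1 with the sign kept, and 211 did none of these. The 46 include HSP70 over HSP90, mitochondria minus cytosol, which also changed sign with both transcript lengths. Each of the 18 changes of sign among pairs came with another length. In log2, with exonic length, the main transcript and the unshared main transcript in this order, HSPD1 minus PHB2 became 1.16, 1.33 and 1.37, HSPE1 minus TRAP1 -1.61, -1.79 and -1.50, TRAP1 minus GRPEL1 1.66, 2.28 and 2.96, and TRAP1 minus GRPEL2 1.28, 2.34 and 2.97. With the main transcript and its unshared part, HSPA9 minus PHB2 became 0.35 and 0.32, HSPE1 minus GRPEL2 0.56 and 1.48, and GRPEL1 minus GRPEL2 0.061 and 0.018. Of these, GRPEL1 and GRPEL2 were called by span and not with either transcript length, while HSPE1 and GRPEL2 were not called by span and were called with both. The ratios, for the same 3 lengths, were 3.13, 1.98 and 2.09 for HSPD1 over HSPA9, 1.74, 2.23 and 1.39 for HSPA9 over TRAP1, 5.46, 4.43 and 2.903 for HSPD1 over TRAP1 and 17.8, 15.8 and 8.35 for HSPD1 over HSPE1. GRPEL1 over GRPEL2 was 1.05 with the main transcript and 1.02 with its unshared part. Mitochondria minus cytosol was 0.30, -0.28 and -0.96 for HSP70 over HSP90 and 2.52, 1.48 and 1.48 for exchange factors; mitochondria minus endoplasmic reticulum was 2.53 and 3.603 with exonic length and the main transcript for HSP70 over HSP90, and -2.48 and -2.71 with the main transcript and its unshared part for exchange factors. The pairs HSPD1 and HSPA9, HSPE1 and GRPEL1, and GRPEL1 and GRPEL2 were no longer called with a pseudocount of 0.1 RPKM. The rescaling of replicate 2 cannot change a ratio within a library, so the 211 include values that could not move. All 7 genes stayed at 1 RPKM or more on each length, which was fixed in advance, since the other lengths are shorter than the span. No paired analysis was possible because both libraries form 1 group. Depth limits HSPE1 and the GRPEL genes, whose reads are fewest.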
